A study of Sus scrofa with 12 samples.

Results

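The genes of sterol and fatty acid synthesis, and the SREBP system that controls them, were examined in porcine aortic valve interstitial cells (paVICs), the fibroblast-like cells of the valve leaflet. Members were the rows of the RNA sequencing count table whose gene symbol was on a list of 37 genes. Of these, 36 had a row and 35 passed the filter on low counts, out of 31908 genes in the table and 13216 that were tested. EBP had no row under its symbol, and ABCG1, a cholesterol exporter with 0 to 15 counts per library, did not pass the filter. Wild-type paVICs from pooled pig hearts were thawed, passaged once, and treated in low-serum medium for 24 h. The groups were vehicle control, 10 μM lysophosphatidylcholine (LPC), 60 μM dantrolene, and LPC + dantrolene at the same doses, with n = 3 libraries each. All 4 groups, vehicle included, held 0.6% DMSO and 0.1% ethanol. LPC is a lysophospholipid used to induce calcification in these cultures, and dantrolene blocks the ryanodine receptor, a calcium release channel. The paper describes experiments on separate cell isolations, run on different days, each with 1 replicate per group. Replicate numbers 1 to 3 were taken to mark these isolations, which the labels do not state. The design asks how each agent, and the pair of them, shifted the expression of these genes, and whether the effect of LPC differed when dantrolene was present.

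Cells make cholesterol from acetyl-CoA through the mevalonate arm, which ends in isoprenoids, and the sterol arm, which folds squalene into sterols and trims them to cholesterol. Transcription of both arms, and of fatty acid synthesis, is driven by the SREBP factors encoded by SREBF1 and SREBF2. When sterols are scarce, SCAP carries the SREBPs from the endoplasmic reticulum to the Golgi, where they are cut and released to the nucleus, and when sterols are plentiful INSIG1 and INSIG2 hold SCAP back. The liver X receptors NR1H2 and NR1H3 respond to oxidised sterols and favour cholesterol export.

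Total counts lay between 16489684 and 24105935 per library, and values are given as CPM (counts scaled to the library size) after TMM scaling. A gene with 3 counts would measure 0.114 to 0.186 CPM, and this limit allows for counting error alone. All 9 fibroblast markers, such as COL1A1 and PDGFRA, were above 1 CPM in every library. Of 7 endothelial markers, 3 were above 1 CPM in every library. Their summed level was 85.1 to 88.4 CPM in vehicle, 63.5 to 70.8 with LPC, 48.1 to 66.4 under dantrolene and 53.3 to 61.7 under both agents. The endothelial sum was thus highest in vehicle, as many members were, and its part in the results was not tested. Mitochondrial genes took the smallest share of counts in vehicle replicates 3 and 2 (1.24% and 1.25%), which held most of the highest member values, against 2.12% in vehicle replicate 1 and 1.53% to 4.17% in the treated libraries. The part of this share in the results was not tested either. The leukocyte markers PTPRC and CD163, the adipocyte marker ADIPOQ and the cardiomyocyte marker TNNT2 were at 0 in all 12 libraries. Summed levels were 12.4 to 28.5 CPM for 6 leukocyte markers, mostly CD14, 0.305 to 4.09 CPM for 4 adipocyte markers and at most 0.609 CPM for the cardiomyocyte markers. Adipocyte marker sums were 1.81 to 4.09 CPM in vehicle and 0.305 to 2.01 CPM in the treated libraries. In such bulk samples, fewer cells of a type and less RNA per cell cannot be told apart. LPC + dantrolene replicate 2 stood apart from the other libraries, with the fewest genes at 10 counts or more (12256, against up to 13130) and a first principal component score of −46.0, against −16.0 to 20.8 for the others. The counts of members called against vehicle are given with and without it, but the values of some single members are not.

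Most members were lower in the treated groups than in vehicle. The median log2 fold change of the 35 members was −0.44 with LPC, −0.33 with dantrolene and −0.66 with LPC + dantrolene, against −0.18, −0.11 and −0.08 over all genes tested. Values were below 0 for 29, 28 and 30 of the 35 members, against 63.3%, 58.6% and 58.1% of all genes. Without TMM scaling, on total counts alone, the medians of all genes moved up to −0.0023, 0.13 and 0.12, and those of the members to −0.26, −0.09 and −0.48. The 3 comparisons share the vehicle libraries, so their medians are not independent of each other. Without LPC + dantrolene replicate 2, the median for LPC + dantrolene was −0.63, against −0.08 over all genes.

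A vehicle library held the highest value of 24 of the 35 members, and the highest value of 30.4% of all genes tested. No member had its lowest value in a vehicle library, where 17.3% of all genes had theirs. The lowest value stood in an LPC library for 14 members (28% of all genes) and in an LPC + dantrolene library for 21 (38%), and in a dantrolene library for 0 (16.7%). Among the vehicle libraries, replicate 3 held the highest value of 15 members (6.9% of all genes) and replicate 2 of 8 (14.7%), but replicate 1 of 1 (8.74%). Vehicle replicate 1 was thus nearer to the treated libraries, with 24 members below the vehicle mean and a median of −0.21 on the log2 scale. In the treated libraries the same median ran from −0.29 in LPC replicate 2 to −0.80 in LPC + dantrolene replicate 3.

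**Figure D1:**
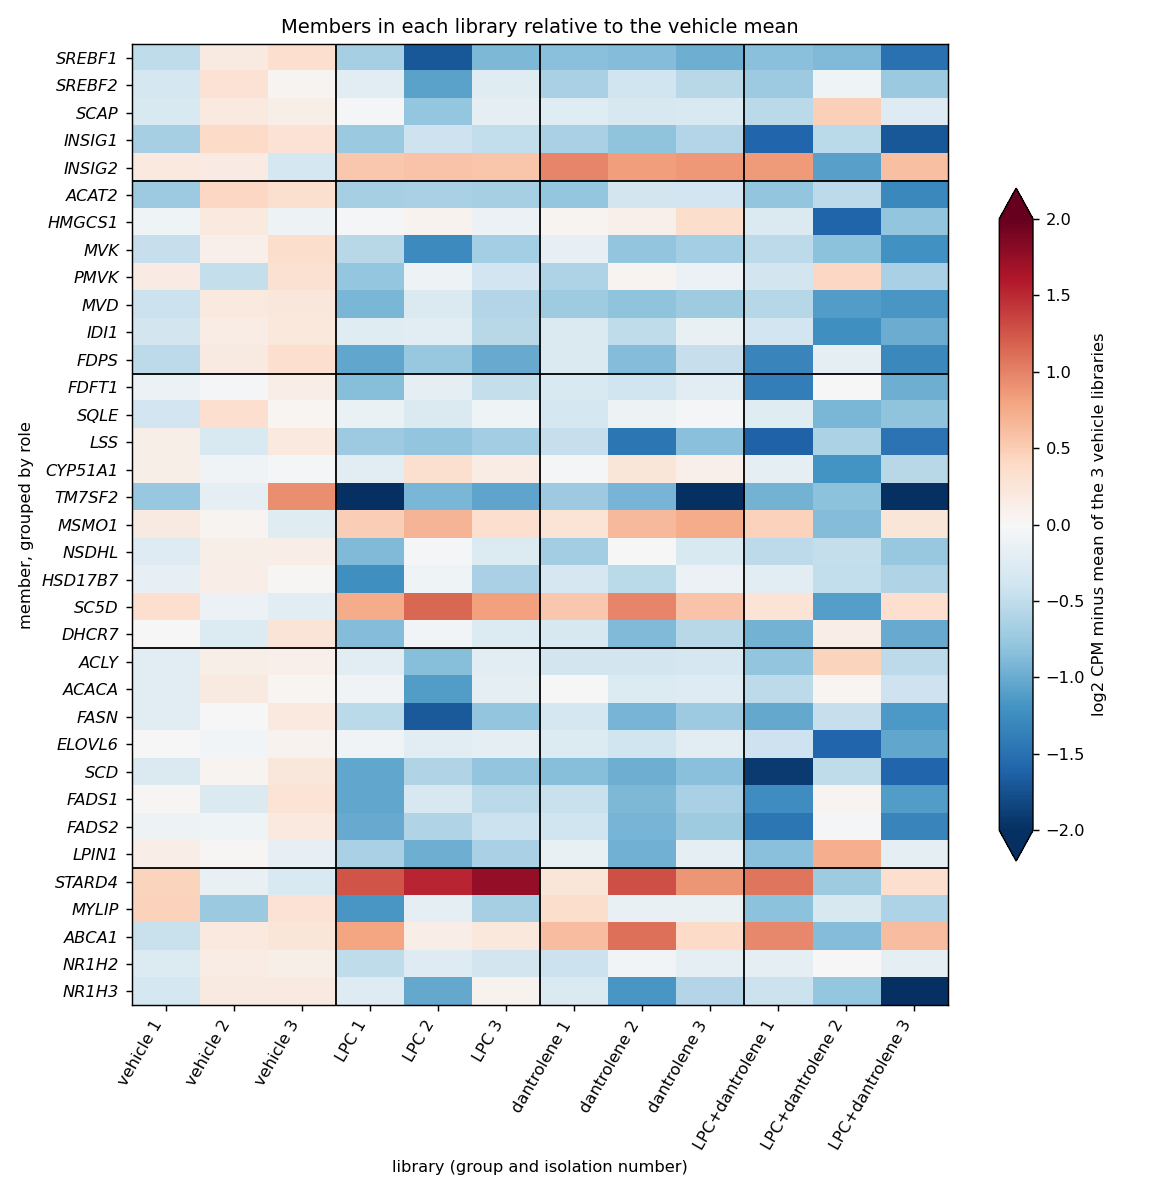
Log2 CPM of each member in each of the 12 libraries, less the mean of the 3 vehicle libraries, with members in rows grouped by role and libraries in columns grouped by treatment. Blue is below and red above the vehicle mean. Most rows are blue in the treated columns, INSIG2, MSMO1, SC5D, STARD4 and ABCA1 are mostly red there, and LPC + dantrolene replicate 2 often differs from its replicates.

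Few members passed the test in any one comparison, and most of those that did fell. Genes were called with edgeR's quasi-likelihood test at a Benjamini-Hochberg adjusted p under 0.05 over all genes tested. With LPC, TM7SF2 and SREBF1 fell, or 2 of 35 members where 0.144% of all genes fell, and STARD4 rose, or 1 of 35 where 8.54% of all genes rose. With dantrolene, TM7SF2 fell, or 1 of 35 where 1.26% of all genes fell. No member rose with dantrolene by edgeR, where 7.54% of all genes did. With LPC + dantrolene, INSIG1, SCD, LSS, SREBF1 and TM7SF2 fell, or 5 of 35 where 0.9% of all genes fell, and none rose by edgeR, where 6.23% of all genes did. Rises were common over the transcriptome and falls were rare, and by edgeR on all 12 libraries the members had more falls than rises in each of the 3 comparisons. With LPC (2 against 1) and with dantrolene (1 against 0) this did not hold by DESeq2 or on total counts alone.

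At an unadjusted p under 0.05 more members were counted. With LPC, 11 members were lower (2.82% of all genes) and 2 higher (13.1%). With dantrolene, 9 were lower (4.05%) and 3 higher (12.2%). With LPC + dantrolene, 17 were lower (3.76%) and 0 higher (10.8%). These counts moved with the scaling and with 1 library. On total counts alone they were 5 lower and 2 higher with LPC, 4 and 5 with dantrolene, where the balance turned, and 10 and 0 with LPC + dantrolene. Vehicle replicate 3 weighed on them as well, and without it they were 3 lower and 2 higher with LPC, 0 and 1 with dantrolene, and 7 and 0 with LPC + dantrolene. The shares of all genes at this threshold were not counted on total counts alone or without that library. DESeq2's Wald test, run on the same counts, called STARD4 and SREBF1 with LPC, no member with dantrolene in either direction, and ELOVL6, INSIG1, LSS, MVD, SCD and SREBF1, all lower, with LPC + dantrolene. Over all 13216 genes DESeq2 called 1086 higher and 21 lower with LPC, 943 and 102 with dantrolene, and 766 and 87 with LPC + dantrolene. On total counts alone, edgeR called 1 higher and 0 lower with LPC, 0 with dantrolene, and 3 lower with LPC + dantrolene. Over all 13216 genes that fit called 1061 higher and 9 lower with LPC, 1014 and 61 with dantrolene, and 874 and 52 with LPC + dantrolene.

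LPC + dantrolene replicate 2 decided much of the last comparison. Without it, 12 of 35 members fell with LPC + dantrolene, where 2.89% of all genes fell. These were INSIG1, SREBF1, ACAT2, FDPS, FDFT1, LSS, TM7SF2, DHCR7, FASN, SCD, FADS1 and FADS2. With 2 libraries in that arm, the spread was taken from all groups. The counts for LPC and dantrolene against vehicle also moved without that library, to 7 members each, and the cause was not tested. With LPC these were FASN, FDPS, SCD, SREBF1 and TM7SF2, lower, and SC5D and STARD4, higher, where 69 of 13583 genes fell and 1623 rose. With dantrolene they were LSS, SCD, SREBF1 and TM7SF2, lower, and INSIG2, SC5D and STARD4, higher, where 284 genes fell and 1515 rose. Leaving out vehicle replicate 3 or LPC + dantrolene replicate 3 instead left 0 members called with LPC + dantrolene by edgeR, and leaving out vehicle replicate 2 left 1, LSS. Over all genes the calls dropped as well, from 824 higher and 119 lower with all libraries. They were 529 and 49 without vehicle replicate 3, 466 and 42 without LPC + dantrolene replicate 3, and 489 and 55 without vehicle replicate 2.

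**Figure D2:**
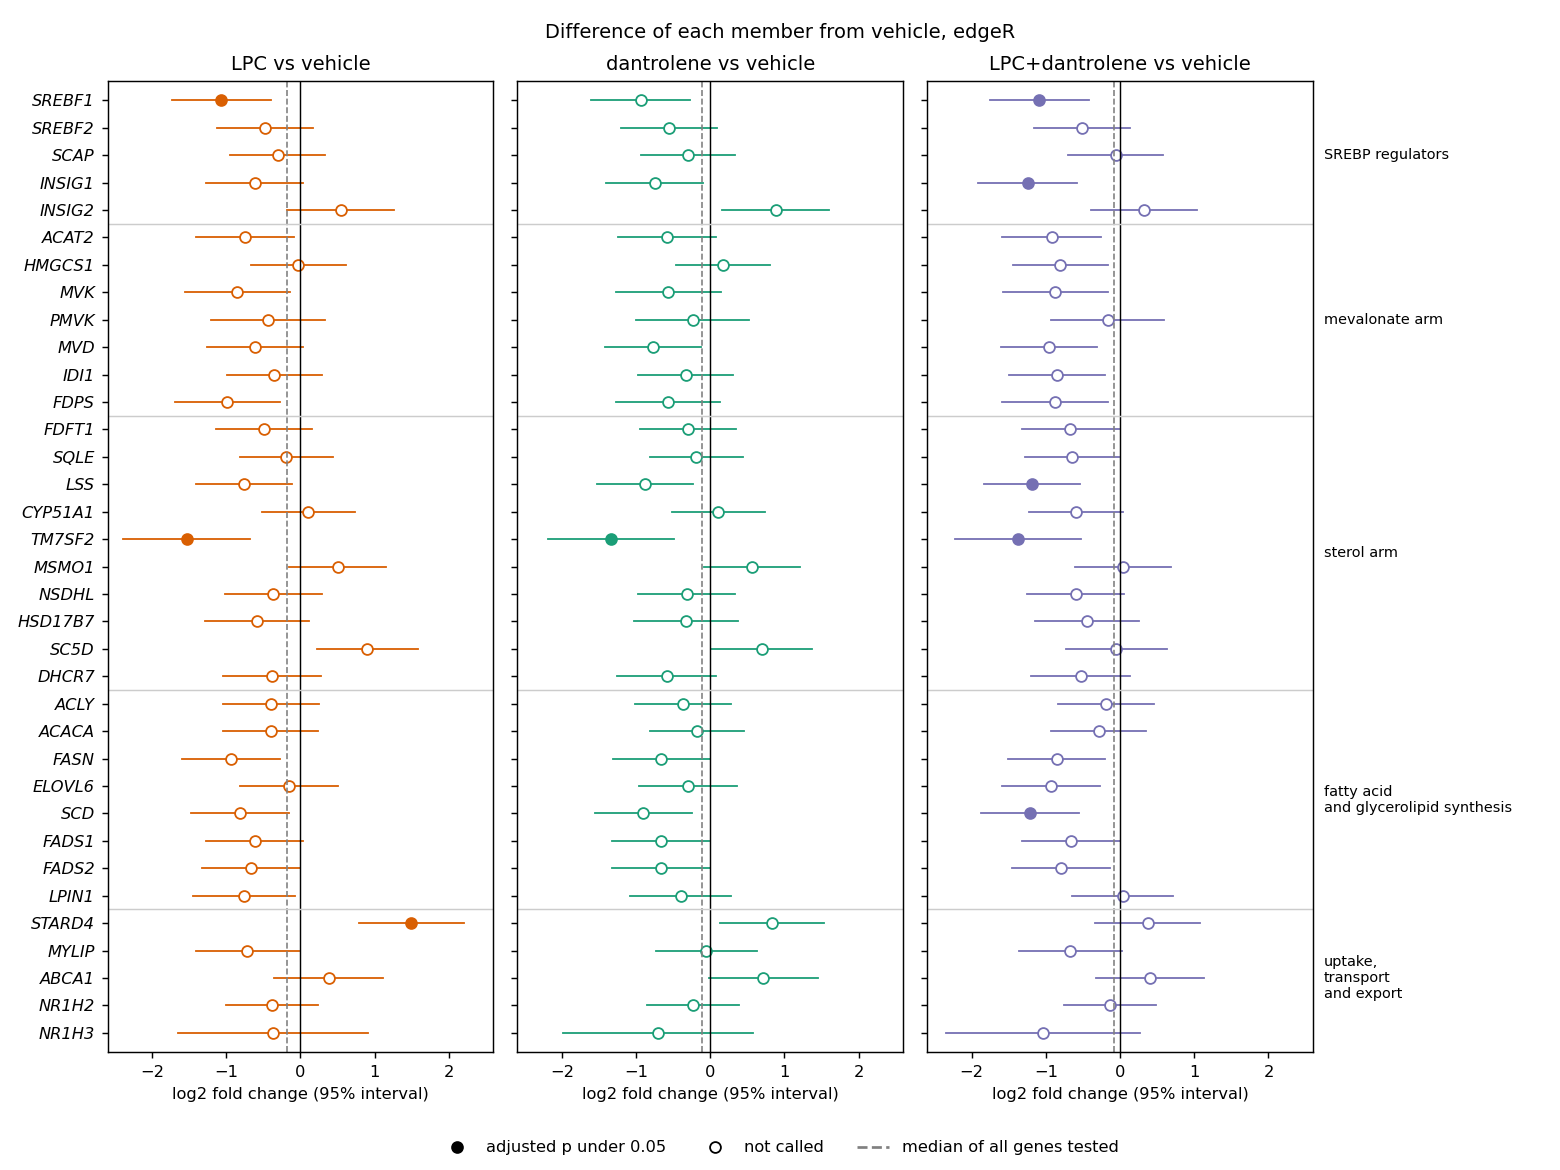
Log2 fold change of each of the 35 tested members against vehicle in the 3 treated groups, with 95% intervals from edgeR. Filled points had an adjusted p under 0.05, the solid line marks no difference and the dashed line the median of all genes tested. Filled points lie left of 0 except STARD4 with LPC.

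Among the SREBP regulators, SREBF1, the gene of the factor best known for fatty acid synthesis, was lower in the treated groups. SREBF1 (chromosome 12, 60733967 to 60750951, Sscrofa11.1) measured 40.3, 65.2 and 72.4 CPM in the vehicle libraries, 36.1, 17.7 and 30.9 with LPC, 32.2, 31.3 and 29.3 with dantrolene, and 32.2, 31.0 and 20.4 with LPC + dantrolene. All 9 treated libraries lay below the lowest vehicle library, and each lay below the vehicle library of its own isolation. It fell with LPC from 59.3 ± 16.9 to 28.2 ± 9.49 CPM (SD, n = 3; log2 fold change −1.07, SE 0.33, edgeR adjusted p = 0.0266). It fell to a like level, 27.9 ± 6.51 CPM, with LPC + dantrolene (log2 fold change −1.09, adjusted p = 0.0273 by edgeR). With dantrolene alone it measured 30.9 ± 1.51 CPM, and the difference of −0.94 did not pass the test (adjusted p = 0.0653 by edgeR).

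The SREBF1 calls rested on the scaling and on single libraries. On total counts alone neither was kept by edgeR, and the LPC + dantrolene call was also lost in a fit of only the groups compared. With the isolation as a block the edgeR adjusted p was 0.062 for LPC and 0.075 for LPC + dantrolene. Without vehicle replicate 3 the log2 fold changes were −0.85 and −0.88 (edgeR adjusted p = 0.294 and 0.29), and without vehicle replicate 2 they were −1.0 and −1.02 (edgeR adjusted p = 0.133 and 0.141). The LPC call was also lost without LPC replicate 2 (adjusted p = 0.242), LPC replicate 3 (0.0687) or dantrolene replicate 1 (0.0529), all by edgeR. The LPC + dantrolene call was lost without LPC + dantrolene replicate 3 (edgeR adjusted p = 0.332). In the other direction, the dantrolene difference passed without vehicle replicate 1 (edgeR adjusted p = 0.0368) or LPC + dantrolene replicate 2 (0.0208).

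SREBF2, whose product is best known for driving sterol synthesis, was the more abundant transcript in counts but is not compared with SREBF1 here, since CPM are not per length. SREBF2 measured 279, 431 and 370 CPM in vehicle, 306, 169 and 300 with LPC, 226, 268 and 242 with dantrolene, and 213, 332 and 211 with LPC + dantrolene. The dantrolene libraries lay below all vehicle libraries, and the other treated groups overlapped with vehicle. Its log2 differences were −0.48 with LPC (95% interval −1.12 to 0.17), −0.55 under dantrolene (−1.20 to 0.09) and −0.51 under both agents (−1.16 to 0.13), and none passed the test (edgeR adjusted p = 0.436 to 0.566). SCAP, the carrier of the SREBPs, measured 85.1, 121 and 114 CPM in vehicle, 104, 61.8 and 92.9 with LPC, 89.3, 84.6 and 85.8 with dantrolene, and 72.4, 146 and 88.5 with LPC + dantrolene. All groups overlapped, and its differences of −0.31, −0.30 and −0.06 did not pass the test (edgeR adjusted p = 0.675, 0.736 and 0.981). The sign of the last turned to 0.0087 with RLE size factors and 0.10 on total counts alone.

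The INSIG genes, which hold SCAP in the endoplasmic reticulum and of which INSIG1 is itself a classical SREBP target, had values on opposite sides of vehicle. INSIG1 (chromosome 18, 2885494 to 2898758) measured 82.4, 171 and 160 CPM in vehicle, 78.0, 98.1 and 93.6 with LPC, 83.6, 74.8 and 87.4 with dantrolene, and 43.4, 90.7 and 40.4 with LPC + dantrolene. Vehicle replicates 2 and 3 were above all other libraries, while vehicle replicate 1 lay within the range of the treated groups. INSIG1 fell with LPC + dantrolene from 138 ± 48.2 to 58.2 ± 28.2 CPM (SD, n = 3; log2 fold change −1.24, SE 0.33, edgeR adjusted p = 0.00767, 0.0218 with the isolation block). The log2 fold change was −1.66 without LPC + dantrolene replicate 2 (edgeR adjusted p = 2.47e-05). The call was lost without vehicle replicate 2 (edgeR adjusted p = 0.114), vehicle replicate 3 (0.085), LPC + dantrolene replicate 1 (0.083) or LPC + dantrolene replicate 3 (0.16). With LPC or dantrolene alone INSIG1 differed by −0.62 and −0.75 on the log2 scale and did not pass the test (edgeR adjusted p = 0.368 and 0.19).

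INSIG2, a less abundant transcript in counts, measured 9.68, 9.46 and 6.62 CPM in vehicle, 12.3, 12.7 and 12.5 with LPC, 16.8, 15.1 and 15.6 with dantrolene, and 15.4, 3.91 and 12.9 with LPC + dantrolene. Every LPC and dantrolene library was above every vehicle library, and LPC + dantrolene replicate 2 was below all others. The log2 differences were 0.54 with LPC, 0.88 with dantrolene and 0.32 with LPC + dantrolene, and none passed the test (edgeR adjusted p = 0.538, 0.143 and 0.867). The dantrolene difference was 0.94 and passed without LPC + dantrolene replicate 2 (edgeR adjusted p = 0.0132).

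**Figure D3:**
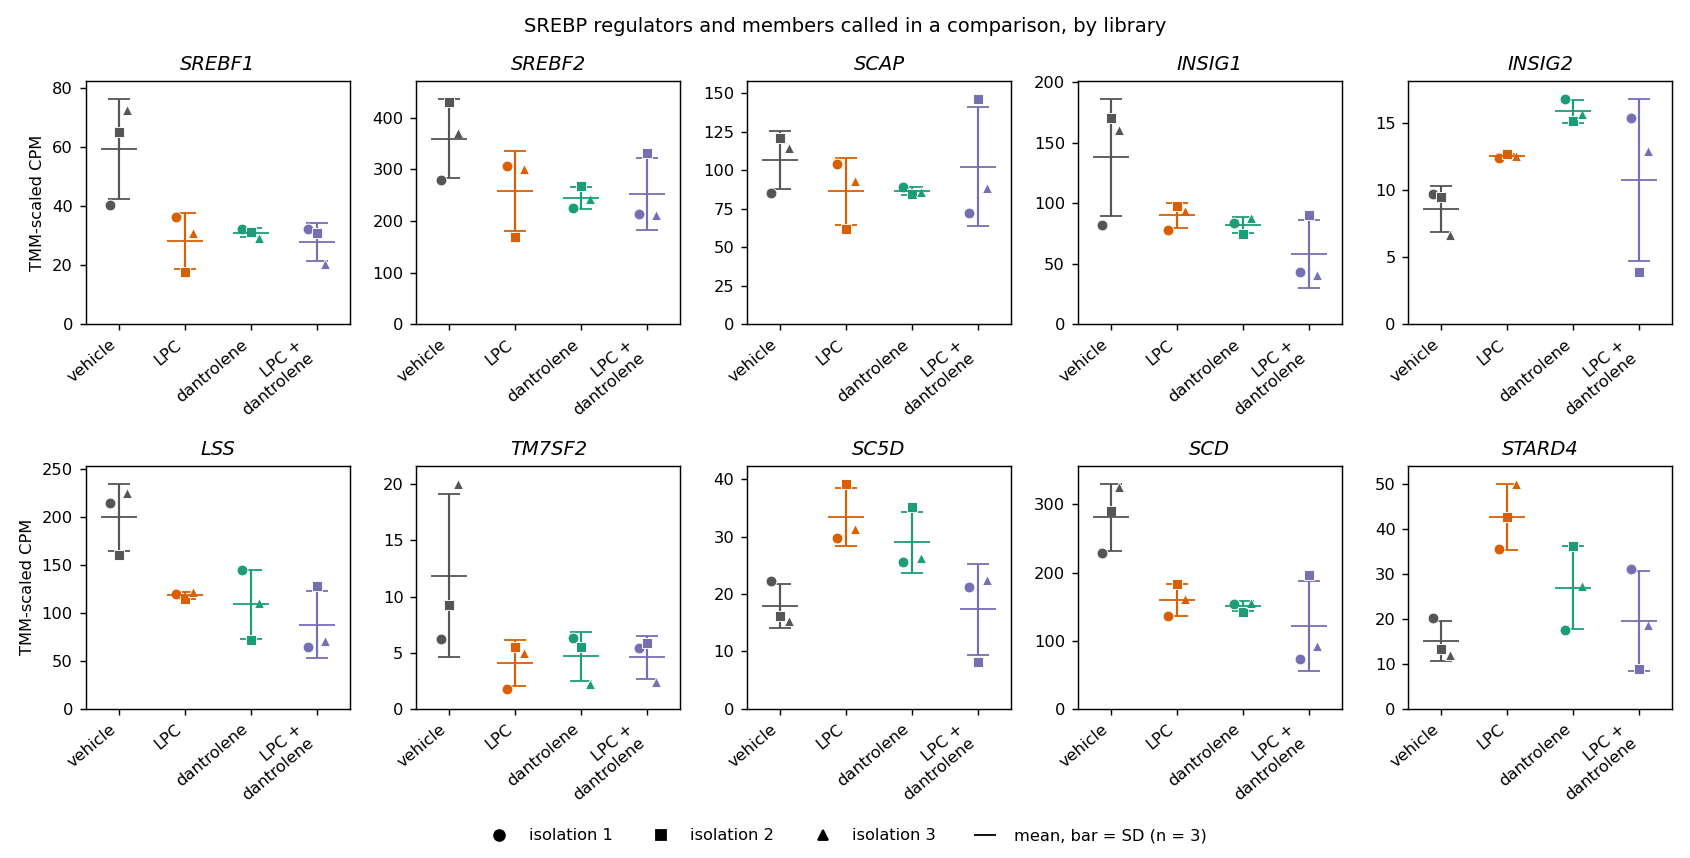
TMM-scaled CPM of the 5 SREBP regulators and of the 5 other members called in a comparison, in each library of the 4 groups. Symbols mark the isolation, horizontal lines the mean and bars the SD (n = 3). SREBF1, LSS and SCD are highest in the vehicle libraries, STARD4 is highest with LPC, and LPC + dantrolene replicate 2 (square) is the lowest library for INSIG2, SC5D and STARD4.

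Enzymes of the mevalonate arm were lower in the treated groups by median, and no single one passed the test. The 7 members are ACAT2, HMGCS1, MVK, PMVK, MVD, IDI1 and FDPS, in the order of the pathway. Their median log2 fold change was −0.61 with LPC, −0.56 with dantrolene and −0.87 with LPC + dantrolene, and it stayed below 0 with RLE size factors and on total counts alone. With LPC + dantrolene, 6 of the 7 had an unadjusted p under 0.05 by edgeR, all lower, and PMVK did not. Over all genes 3.76% were lower at this threshold. MVD, the decarboxylase that yields isopentenyl diphosphate, measured 60.7 ± 14.4 CPM in vehicle, 39.8 ± 8.42 with LPC, 35.5 ± 1.49 with dantrolene and 31.3 ± 7.70 with LPC + dantrolene. Its lowest vehicle library, 44.1 CPM, was above every library of the dantrolene and LPC + dantrolene groups. The log2 difference with LPC + dantrolene was −0.95 (edgeR adjusted p = 0.0598, and called by DESeq2). FDPS, which makes farnesyl diphosphate, measured 16.8 ± 4.89 CPM in vehicle and 8.49 ± 0.931 with LPC, a difference of −0.98 (edgeR adjusted p = 0.0766).

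HMGCS1, the synthase of HMG-CoA, differed in its pattern from its neighbours. It measured 123 ± 14.4 CPM in vehicle, 121 ± 7.69 with LPC and 139 ± 15.8 with dantrolene, but 100, 40.4 and 71.0 CPM with LPC + dantrolene. The libraries of the last group lay below all others, replicate 2 lowest, and with or without that library HMGCS1 was not called against vehicle. Against LPC the log2 difference was −0.78 (95% interval −1.42 to −0.14, edgeR adjusted p = 0.519), and against dantrolene −0.98 (−1.62 to −0.33, edgeR adjusted p = 1.0). ACAT2, the thiolase that joins the first acetyl groups, measured 31.4, 69.8 and 65.1 CPM in vehicle and 21.3 to 40.4 CPM in the 9 treated libraries. Vehicle replicate 1 lay within the treated range, as it did for INSIG1. IDI1, the isomerase, measured 60.3 ± 12.2 CPM in vehicle and 33.5 ± 10.7 with LPC + dantrolene (log2 difference −0.84, edgeR adjusted p = 0.119). MVK and PMVK, the kinases of mevalonate, measured 14.6 ± 3.96 and 7.53 ± 2.02 CPM in vehicle and 7.97 ± 1.89 and 6.72 ± 2.73 with LPC + dantrolene.

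In the sterol arm, LSS and TM7SF2 fell, while MSMO1 and SC5D had values above vehicle with either agent alone. The 10 tested members had a median log2 fold change of −0.37 with LPC, −0.31 with dantrolene and −0.60 with LPC + dantrolene, and all 3 medians stayed below 0 with RLE size factors and on total counts alone. LSS, which folds squalene epoxide into lanosterol, measured 214, 160 and 225 CPM in vehicle, 119, 114 and 121 with LPC, 144, 72.0 and 110 with dantrolene, and 64.5, 127 and 71.1 with LPC + dantrolene. Every treated library was below every vehicle library. It fell with LPC + dantrolene from 200 ± 34.9 to 87.7 ± 34.6 CPM (SD, n = 3; log2 fold change −1.19, SE 0.33, edgeR adjusted p = 0.0105, 0.0404 with the isolation block). It was −1.50 without LPC + dantrolene replicate 2 (edgeR adjusted p = 0.000105). The call was lost without vehicle replicate 1 (edgeR adjusted p = 0.0518), vehicle replicate 3 (0.0979), LPC + dantrolene replicate 1 (0.097) or LPC + dantrolene replicate 3 (0.145). With LPC it measured 118 ± 3.84 CPM and with dantrolene 109 ± 36.0 CPM, differences of −0.76 and −0.88 that did not pass the test (edgeR adjusted p = 0.182 and 0.085).

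TM7SF2, a sterol reductase (chromosome 2, 7076778 to 7081502, ending 105 bases from the gene VPS51), was called in all 3 comparisons with vehicle. It measured 6.20, 9.29 and 20.05 CPM in vehicle, 1.74, 5.54 and 4.99 with LPC, 6.30, 5.49 and 2.24 with dantrolene, and 5.42, 5.90 and 2.41 with LPC + dantrolene. Vehicle replicate 3 was far above all others, and vehicle replicate 1 lay below dantrolene replicate 1. These libraries held between 34 and 345 counts of the gene. The means fell from 11.8 ± 7.27 CPM to 4.09 ± 2.05 with LPC (log2 fold change −1.53, edgeR adjusted p = 0.00994), to 4.67 ± 2.15 with dantrolene (−1.34, adjusted p = 0.0313) and to 4.58 ± 1.89 with LPC + dantrolene (−1.37, adjusted p = 0.0306). Without vehicle replicate 3 the log2 fold changes were −0.86, −0.68 and −0.73, and the edgeR adjusted p was 0.526, 0.798 and 0.82. DESeq2 called none of the 3 (adjusted p = 0.0553, 0.132 and 0.135), and with the isolation block in edgeR only the LPC call was kept (adjusted p = 0.041, 0.139 and 0.142).

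The scaling and other libraries also decided TM7SF2. On total counts alone none of its calls was kept by edgeR. The LPC + dantrolene call was also lost with RLE size factors and in a fit of only the groups compared. The LPC call was lost without LPC replicate 1 (edgeR adjusted p = 0.212) or LPC replicate 2 (0.0575). The dantrolene call was lost without vehicle replicate 2 (edgeR adjusted p = 0.0688), LPC replicate 2 (0.10), dantrolene replicate 2 (0.103) or dantrolene replicate 3 (0.269). The LPC + dantrolene call was lost without vehicle replicate 2 (edgeR adjusted p = 0.0679), LPC replicate 2 (0.108), dantrolene replicate 1 (0.0543), LPC + dantrolene replicate 1 (0.083) or LPC + dantrolene replicate 3 (0.297).

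MSMO1 and SC5D act on the methyl groups and the ring double bonds of sterols. MSMO1 measured 48.5 ± 7.14 CPM in vehicle, 68.6 ± 7.99 with LPC, 71.7 ± 11.7 with dantrolene and 50.0 ± 20.9 with LPC + dantrolene. Its differences of 0.50 with LPC and 0.56 with dantrolene did not pass the test (edgeR adjusted p = 0.527 and 0.429), although the libraries of both groups lay above all vehicle libraries. SC5D (chromosome 9, 48357115 to 48372391) measured 22.3, 16.2 and 15.3 CPM in vehicle, 29.8, 39.3 and 31.3 with LPC, 25.7, 35.1 and 26.3 with dantrolene, and 21.3, 8.20 and 22.5 with LPC + dantrolene. Every library of LPC or dantrolene alone was above every vehicle library, and with both agents replicates 1 and 3 lay near the highest vehicle library and replicate 2 below all vehicle libraries. The log2 differences from vehicle were 0.90 with LPC (95% interval 0.22 to 1.58, edgeR adjusted p = 0.101), 0.69 with dantrolene (0.01 to 1.37, adjusted p = 0.287) and −0.05 with LPC + dantrolene (−0.73 to 0.63, adjusted p = 0.987). Without LPC + dantrolene replicate 2 the differences with LPC and with dantrolene passed the test, at 0.96 and 0.75 (edgeR adjusted p = 0.00609 and 0.0456).

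The remaining sterol enzymes did not pass the test in any comparison of all 12 libraries. CYP51A1, which removes a methyl group from lanosterol, measured 130 ± 9.02 CPM in vehicle, 140 ± 25.3 with LPC, 141 ± 13.1 with dantrolene and 86.2 ± 28.3 with LPC + dantrolene. As with HMGCS1, its difference was near 0 with either agent alone (0.10 and 0.11) and below 0 with both (−0.60, edgeR adjusted p = 0.403). The LPC + dantrolene libraries of CYP51A1 measured 113, 56.9 and 88.4 CPM. Replicate 2 was thus the lowest, and replicate 1 lay just within the range of the LPC libraries. SQLE, the squalene epoxidase, measured 126 ± 31.0 CPM in vehicle and 80.5 ± 21.1 with LPC + dantrolene, and FDFT1, the squalene synthase, 140 ± 12.5 and 87.9 ± 45.6 CPM. FDFT1 and DHCR7 fell with LPC + dantrolene once its replicate 2 was left out, by 1.11 and 0.94 on the log2 scale (edgeR adjusted p = 0.00315 and 0.0212). For NSDHL, HSD17B7 and DHCR7, enzymes of the later steps, the differences from vehicle lay between −0.60 and −0.32 in the 3 treated groups.

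Members of fatty acid and glycerolipid synthesis had mostly negative differences from vehicle. With LPC and with dantrolene all 8 had fitted log2 differences below 0 after TMM scaling, with medians of −0.64 and −0.53, and 7 of 8 did on total counts alone. With LPC + dantrolene 7 of 8 were below 0, with a median of −0.73, and all 3 medians stayed below 0 with RLE size factors and on total counts alone. SCD, the stearoyl-CoA desaturase that makes monounsaturated fatty acids (chromosome 14, 111461560 to 111478033), measured 228, 290 and 326 CPM in vehicle, 136, 183 and 161 with LPC, 154, 142 and 156 with dantrolene, and 73.7, 196 and 92.8 with LPC + dantrolene. Every treated library was below every vehicle library. SCD fell with LPC + dantrolene from 281 ± 49.2 to 121 ± 66.1 CPM (SD, n = 3; log2 fold change −1.22, SE 0.33, edgeR adjusted p = 0.00915, 0.0171 with the isolation block). Without LPC + dantrolene replicate 2 it was −1.70 (edgeR adjusted p = 9.75e-06). The call was lost without vehicle replicate 2 (edgeR adjusted p = 0.058), vehicle replicate 3 (0.097), LPC + dantrolene replicate 1 (0.119) or LPC + dantrolene replicate 3 (0.146). With LPC it measured 160 ± 23.5 and with dantrolene 151 ± 7.56 CPM, differences of −0.82 and −0.90 that did not pass (edgeR adjusted p = 0.136 and 0.0779).

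FASN, the fatty acid synthase, measured 354, 413 and 468 CPM in vehicle, and 282, 128 and 236 CPM with LPC. All its treated libraries, which reached at most 321 CPM, were below the vehicle libraries. The log2 differences were −0.94 with LPC, −0.66 with dantrolene and −0.85 with LPC + dantrolene, and none passed the test (edgeR adjusted p = 0.0622, 0.297 and 0.12). The polyunsaturated fatty acid desaturases FADS1 and FADS2, neighbours on chromosome 2, had much the same pattern. FADS2 measured 330 ± 40.8 CPM in vehicle, 208 ± 40.9 with LPC and 208 ± 39.4 with dantrolene, while the LPC + dantrolene libraries measured 121, 319 and 131 CPM. Its replicate 2 thus lay with the vehicle libraries and the others lay below every other library. Without that replicate FADS1 and FADS2 fell with LPC + dantrolene by 1.14 and 1.33 on the log2 scale (edgeR adjusted p = 0.00294 and 0.000485), against differences of −0.66 and −0.79 with it (edgeR adjusted p = 0.338 and 0.181).

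ELOVL6, the elongase of saturated fatty acids, had lower values with both agents than with either alone, but these differences did not pass the test. It measured 31.1 ± 1.39 CPM in vehicle, 27.9 ± 1.65 with LPC and 25.2 ± 1.64 with dantrolene, but 23.4, 10.3 and 15.1 CPM with LPC + dantrolene (log2 difference from vehicle −0.93, edgeR adjusted p = 0.0778, and called by DESeq2). The log2 difference of LPC + dantrolene was −0.78 from LPC (edgeR adjusted p = 0.558) and −0.63 from dantrolene. LPC + dantrolene replicate 2 was the lowest library, and without it ELOVL6 was not called against vehicle by edgeR. ACLY and ACACA, which supply acetyl-CoA and malonyl-CoA, differed by −0.18 to −0.40 in the 3 treated groups and did not pass the test. LPIN1, a phosphatidate phosphatase, measured 26.2 ± 2.73 CPM in vehicle, 15.5 ± 1.92 with LPC, 19.9 ± 5.63 with dantrolene and 14.5, 43.2 and 23.1 with LPC + dantrolene. Its LPC libraries were all below the vehicle libraries, yet the difference of −0.76 did not pass the test (edgeR adjusted p = 0.23).

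STARD4, a soluble carrier that moves cholesterol between membranes and a known SREBP target, was the member that rose with LPC. STARD4 (chromosome 2, 116235821 to 116257143) measured 20.2, 13.3 and 12 CPM in vehicle, 35.5, 42.6 and 50.1 with LPC, 17.5, 36.1 and 27.3 with dantrolene, and 31.1, 8.95 and 18.7 with LPC + dantrolene. Every LPC library was above every vehicle library, dantrolene overlapped with both, and LPC + dantrolene replicate 2 was the lowest of all. It rose with LPC from 15.1 ± 4.44 to 42.7 ± 7.30 CPM (SD, n = 3; log2 fold change 1.49, SE 0.36, edgeR adjusted p = 0.00169, 0.00952 with the isolation block). The difference was 0.83 with dantrolene and 0.37 with LPC + dantrolene, and neither passed the test (edgeR adjusted p = 0.166 and 0.82). The dantrolene difference was 0.89 and passed without LPC + dantrolene replicate 2 (edgeR adjusted p = 0.0226).

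Among the other transport and export members no difference passed the test. MYLIP, a ubiquitin ligase induced by liver X receptors that lowers lipoprotein uptake, measured 21.0 ± 8.18 CPM in vehicle, 12.8 ± 4.27 with LPC, 20.3 ± 4.25 with dantrolene and 13.2 ± 2.31 with LPC + dantrolene. ABCA1, the cholesterol exporter, measured 8.43 ± 2.06 CPM in vehicle and 13.8 ± 3.65 with dantrolene, and every dantrolene library was above every vehicle library (log2 difference 0.71, edgeR adjusted p = 0.332). NR1H2 measured 103 ± 15.9 CPM in vehicle and 78.8 to 93.5 CPM as the means of the treated groups. NR1H3 was low, at 0.401 to 2.39 CPM or 8 to 43 counts. With STARD4, these members had a median log2 difference of −0.37 with LPC, −0.05 with dantrolene and −0.14 with LPC + dantrolene, and on total counts alone the last 2 turned to 0.18 and 0.07.

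Between the treated groups no member was called, either by edgeR or by DESeq2. LPC + dantrolene against LPC had 6 members at an unadjusted p under 0.05, where 6.61% of all genes had one and 0.507% were called. These were HMGCS1, CYP51A1, SC5D, ELOVL6 and STARD4, lower, and LPIN1, higher. When LPC + dantrolene replicate 2 was left out there were 9 lower and 0 higher, LPIN1 no longer among them. Over all genes the calls moved too, from 29 higher and 38 lower to 53 and 87. The STARD4 difference was −1.12 (95% interval −1.83 to −0.42, edgeR adjusted p = 0.168), and it was called without LPC + dantrolene replicate 1. INSIG1 was called lower without LPC + dantrolene replicate 2, with a difference of −1.11 (edgeR adjusted p = 0.0444), against −0.63 with it. LPC + dantrolene against dantrolene had 3 members at an unadjusted p under 0.05 (1.28% of all genes, and 0.0227% called), which were HMGCS1, CYP51A1 and SC5D, all lower. There were 8, all lower, without LPC + dantrolene replicate 2, 9 lower and 1 higher without LPC + dantrolene replicate 1, and 1 lower without dantrolene replicate 2. Over all genes these fits called 3 higher and 0 lower, 2 and 0, and 2 and 0. The shares of all genes at an unadjusted p under 0.05 were not counted for fits that left out a library. Dantrolene against LPC had 0 such members by edgeR and 0 by DESeq2 (4.4% of all genes, and 0.325% called), and its median over the members was 0.05.

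The effect of LPC with dantrolene present was set against its effect without dantrolene in an interaction test. It was lower for STARD4 and SC5D, or 2 of 35 members where 4.49% of all genes were lower, and higher for 0 members by edgeR and by DESeq2, where 0.159% of all genes were higher. The 5.71% of members with a lower effect was thus near the share of all genes. For STARD4 the LPC difference was 1.49 without dantrolene and −0.46 with it, an interaction of −1.96 on the log2 scale (SE 0.50, edgeR adjusted p = 0.00903, 0.0418 with the isolation block). For SC5D the differences were 0.90 and −0.74, an interaction of −1.64 (SE 0.48, edgeR adjusted p = 0.0297, 0.0824 with the isolation block). The means with dantrolene alone, 27.0 ± 9.30 CPM for STARD4 and 29.0 ± 5.28 for SC5D, lay above the vehicle means and enter both interactions. The interactions were −1.68 and −1.38 without LPC + dantrolene replicate 2 (edgeR adjusted p = 0.0102 and 0.0308).

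Other libraries decided the interaction calls. Both were lost without vehicle replicate 2 (edgeR adjusted p = 0.0672 for STARD4 and 0.119 for SC5D), LPC replicate 2 (0.0929 and 0.16) or dantrolene replicate 2 (0.115 and 0.174). The SC5D call was also lost without vehicle replicate 3 (edgeR adjusted p = 0.0813) or LPC replicate 1 (0.0713). On total counts alone neither was called (edgeR adjusted p = 0.054 and 0.0775). TM7SF2 and LPIN1 had interactions of 1.50 and 1.19 in the opposite direction that did not pass the test (edgeR adjusted p = 0.167 and 0.176), and TM7SF2 was called without LPC + dantrolene replicate 3.

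**Figure D4:**
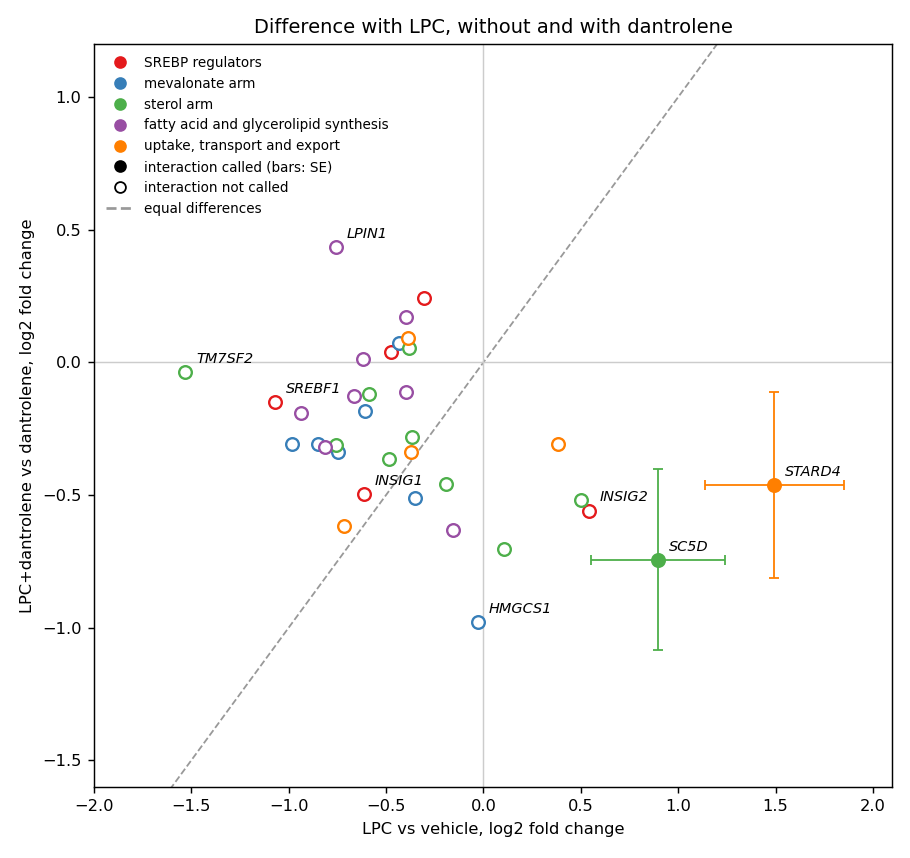
Log2 fold change with LPC without dantrolene (LPC against vehicle, x axis) and with dantrolene (LPC + dantrolene against dantrolene, y axis) for the 35 tested members, coloured by role. Filled points with SE bars are STARD4 and SC5D, whose interaction had an adjusted p under 0.05, and the dashed line marks equal differences. The x values run from −1.53 for TM7SF2 to 1.49 for STARD4. Of the 35 y values 27 are below 0, against 49.6% of all genes tested.

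Few other genes of these pathways were called. Of 39 other genes of SREBP processing, isoprenoid synthesis, fatty acid supply, cholesterol uptake and storage, and nuclear receptor partners, 33 had a row and 32 were tested. The 1 called against vehicle, or 1 of 32 with dantrolene where 1.26% of all genes fell, was SCARB1, the scavenger receptor for high-density lipoprotein, which measured 20.5, 44.4 and 36.4 CPM in vehicle and 18.2, 14.6 and 16.9 with dantrolene. Every dantrolene library was below every vehicle library, and SCARB1 fell from 33.8 ± 12.2 to 16.6 ± 1.84 CPM (SD, n = 3; log2 fold change −1.03, edgeR adjusted p = 0.0374, 0.102 with the isolation block). The call was lost without vehicle replicate 2, vehicle replicate 3, or any 1 of the LPC or dantrolene libraries (edgeR adjusted p = 0.0549 to 0.308). It was also lost with RLE size factors (edgeR adjusted p = 0.0553), on total counts alone (0.17) and with no filter on low counts (0.0518). With LPC and with LPC + dantrolene none of the 32 was called by edgeR or by DESeq2. At an unadjusted p under 0.05 by edgeR, 2 were lower with LPC (2.82% of all genes) and 1 higher (13.1%). With LPC + dantrolene, 1 was lower (3.76%) and 0 higher (10.8%). The medians of the 32 were −0.34 with LPC, −0.14 with dantrolene and −0.16 with LPC + dantrolene.

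Where the genes lie may limit some of these values. Coordinates are those of the RefSeq annotation of Sscrofa11.1, in which 34 of the 36 members with a row had a match. The spans of STARD4 and SC5D each overlap a long noncoding RNA gene there, and whether exons are shared was not examined. Whether the counting used strand is not given in the sources used here, so it is not known if reads of the pair were kept apart. The spans of ACAT2, PMVK, ACACA, ELOVL6, FADS2, LPIN1 and NR1H3 also overlap another gene. LSS lies on an unplaced scaffold.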

How the data were processed

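RNA sequencing of paVICs gave 12 libraries in 4 groups of 3. The authors deposited whole-number counts per gene, adjusted for batch with ComBat and not scaled for library size. The paper's methods name STAR, whereas the submitters' processing notes list HISAT2 2.0.5, DESeq2 1.32.0 and R 4.1.1 with Sscrofa11.1. The counter and annotation release are not given in the sources used here. Since ComBat spent degrees of freedom unknown to the tests, adjusted p-values may be too small. The authors' 4 comparison tables (fold changes, standard errors, scores, p-values) were not used.

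Counts were tested with edgeR 4.0.16 (R 4.3.3). After filterByExpr (minimum count 10) and TMM scaling, 1 quasi-likelihood model with a term for group covered all 12 libraries, and a gene was called where its Benjamini-Hochberg adjusted p over all tested genes was under 0.05. The script was tested on simulated counts. CPM are TMM-scaled, with a prior count of 2 in log2 CPM. The first principal component used the 500 most variable genes, less any members among them. Intervals are at 95%.

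The members and lists were chosen with earlier results of these data known. Members called in any comparison, and the 5 SREBP regulators, are given in every library, and the others by group. Exceptions, added after their values were seen, are LPC + dantrolene libraries of HMGCS1, CYP51A1, FADS2, ELOVL6 and LPIN1, and libraries of ACAT2 and FASN. Replicates were paired by isolation on the assumption that equal replicate numbers in the labels mark 1 isolation of the paper's methods. Deviations from group means correlated at a median of −0.16 (−0.70 to 0.27, 18 pairs) within an isolation, against 0.12 otherwise, after an adjustment that removes isolation means.

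Alternatives were leaving out each library in turn, the isolation as a block, DESeq2 1.42.0, fits of only the groups compared, scaling by RLE or by library totals, filters of 10 counts in every sample or none, and a threshold of 0.1.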

Additional observations from a re-analysis of the deposited data

Results flagged for a closer look

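The effect of LPC differed between cells without and with dantrolene for 2 of 35 members, by the interaction term of the edgeR model. Both were lower, and this 5.71% of members was near the 4.49% of all genes that were lower. STARD4 had an interaction of −1.96 on the log2 scale, from an LPC difference of 1.49 without dantrolene and −0.46 with it (edgeR adjusted p = 0.00903). SC5D had an interaction of −1.64, from 0.90 and −0.74 (edgeR adjusted p = 0.0297, and 0.0824 with the isolation block, which ended that call). Leaving out replicate 2 of vehicle, LPC or dantrolene, or scaling by library totals, ended both calls, and a cause was not tested.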

How the results depend on the processing

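The count of members called was the result most open to the processing, and the causes were not tested. Against vehicle, LPC called 3 members, and 1 on total counts alone, 6 with only the groups compared and 5 at an adjusted p under 0.1. Dantrolene called 1, and 0 by DESeq2, on total counts alone and with the replicate block, 6 with only the groups compared and 4 at an adjusted p under 0.1. LPC + dantrolene called 5, and 3 on total counts alone or with the replicate block, 0 with only the groups compared and 8 at an adjusted p under 0.1. Over all genes the calls moved too. LPC called 1129 higher and 19 lower, 1558 and 57 with only the groups compared, 1061 and 9 on total counts alone, and 1304 and 61 at an adjusted p under 0.1. Dantrolene called 997 and 166, 1014 and 61 on total counts alone, 740 and 77 with the replicate block, 1249 and 290 with only the groups compared, and 1169 and 246 at an adjusted p under 0.1. LPC + dantrolene called 824 and 119, 874 and 52 on total counts alone, 559 and 59 with the replicate block, 522 and 31 with only the groups compared, and 968 and 193 at an adjusted p under 0.1. The interaction called 2, and 0 on total counts alone and 1 with the replicate block. Leaving out each library in turn gave 1 to 7 members for LPC, 0 to 7 for dantrolene, 0 to 12 for LPC + dantrolene, 0 to 3 for the interaction and 0 to 1 for LPC + dantrolene against LPC. The other comparisons between treated groups had 0 called members under all their alternatives. Over all genes the calls moved with the library left out as well. The highest member counts against vehicle came without LPC + dantrolene replicate 2. There LPC called 1623 genes higher and 69 lower, and dantrolene 1515 and 284. LPC + dantrolene called 2.89% of all genes lower there, against 0.9% with all libraries. Without LPC + dantrolene replicate 3, LPC + dantrolene called 0 members, and 466 genes higher and 42 lower. The pairing by isolation changed no call beyond those given beside the results and left no member gained.

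The rise of STARD4 with LPC was called under all 20 alternatives (log2 fold change 1.36 to 1.76, edgeR adjusted p up to 0.041, and 0.0027 by DESeq2). The sign of SCAP with LPC + dantrolene turned in 8 alternatives, to 0.0087 by DESeq2, 0.0087 with RLE size factors, 0.10 on total counts alone, 0.029 with only the groups compared, 0.036 and 0.019 without vehicle replicates 2 and 3, and 0.13 and 0.032 without LPC + dantrolene replicates 1 and 3, and it was −0.35 without replicate 2. That of INSIG2 turned to −0.027 without LPC + dantrolene replicate 1, and it was 0.77 without replicate 2. With 3 libraries per group and few counts for TM7SF2 and NR1H3, smaller differences were not detectable at this depth.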

Other observations

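EBP, the sterol isomerase that had no row under its symbol, has a row under the identifier that a table of gene names pairs with it. It measured 38.2 CPM in vehicle, 25.8 with LPC, 30.3 with dantrolene and 25.4 with LPC + dantrolene as group means of 3 libraries. Its log2 differences from vehicle were −0.56, −0.34 and −0.59, and none passed the test (edgeR adjusted p = 0.472, 0.718 and 0.475). These values lie on the same side of vehicle as those of most sterol enzymes, and they enter none of the counts above.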
